A study of Mus musculus with 12 samples.

Results

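The 10 genes described here carry insulin, insulin-like growth factor (IGF) and adipokine signals: the growth factor Igf1, the receptors Insr, Igf1r, Lepr, Adipor1 and Adipor2, the docking proteins Irs1 and Irs2, the kinase Akt2 and the transcription factor Foxo1. They were chosen by gene symbol and are 10 of the 22180 genes that the arrays name by a transcript cluster (the group of probes that stands for a gene) with a single symbol. Where a gene had several such clusters, the one with the highest average signal across the 12 arrays was taken.

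RNA of the hippocampus of 12 male mice, 18 months old and perfused with saline, was hybridised mouse by mouse to 12 Affymetrix arrays of the type Mouse Gene 2.0 ST. Wild-type mice and AppNL-F/NL-F mice, a knock-in line whose own App gene encodes humanized Aβ, carries the Swedish and Iberian mutations and is read from its own promoter, were fed a control diet (RD) or a high-fat diet (HFD) for 12 months from the age of 6 months. The 4 groups of 3 mice each are named by genotype and diet (WT or App, followed by RD or HFD), and the labels call the HFD mice diabetic and the RD mice non-diabetic. No female and no other age was measured, and the arrays report RNA, not the protein or its phosphorylation. Each array gave log2 expression values for 41345 clusters, of which between 23.6% and 24.3% lay above an intensity of 100, a log2 of 6.64. Across clusters, which are no independent replicates, r between any 2 arrays was 0.982 to 0.988. Of 10 markers of hippocampal neurons 9 had a mean above an intensity of 100, against 3 of 8 measured markers of neighbouring brain regions.

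Insulin and IGF1 bind related receptor tyrosine kinases, which phosphorylate the docking proteins IRS1 and IRS2. These recruit PI3-kinase, which activates AKT, and AKT keeps FOXO factors out of the nucleus, where they otherwise switch on genes of fasting and stress resistance. Leptin acts through a cytokine receptor that signals by JAK2 and STAT3, and adiponectin acts through the receptors ADIPOR1 and ADIPOR2, in part by AMP-activated kinase and PPARα. In the hippocampus these signals bear on synaptic plasticity and glucose use, and a weakened response to insulin there is called brain insulin resistance.

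The 250 bases before the annotated start of Igf1 and Adipor2 are shown first, since these were the members whose groups separated by genotype. RefSeq's table (build GRCm38.p6) matched 9 of the 10 genes, all but Insr, with 14 start windows in all. Both strands of each window were searched for the FOXO core GTAAACA, or TGTTTAC on the other strand, and for the E-box CACGTG, which reads the same on both strands. The FOXO core stood in 3.17% of all 32851 windows and in 1 of the 14 member windows, that of Adipor2, 172 bases before the start, where it is in capitals. The window of Igf1 held neither motif. Igf1 lies on the plus strand at chr10:87860861-87861110 and Adipor2 on the minus strand at chr6:119388735-119388984, each written 5′ to 3′ as read by the gene.
Igf1: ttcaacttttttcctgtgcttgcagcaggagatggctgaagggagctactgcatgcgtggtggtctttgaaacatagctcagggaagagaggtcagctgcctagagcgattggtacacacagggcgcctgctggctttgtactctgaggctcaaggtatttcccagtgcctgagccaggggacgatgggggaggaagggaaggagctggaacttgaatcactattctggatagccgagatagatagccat
Adipor2: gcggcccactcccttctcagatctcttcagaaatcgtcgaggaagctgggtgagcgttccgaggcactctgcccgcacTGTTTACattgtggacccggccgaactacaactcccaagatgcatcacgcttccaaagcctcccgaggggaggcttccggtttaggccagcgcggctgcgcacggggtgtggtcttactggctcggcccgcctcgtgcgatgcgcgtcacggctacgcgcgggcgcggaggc

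The E-box stood in 6.02% of all windows and in 2 of the 14 member windows, those of the related docking protein genes Irs1 and Irs2. A stretch of 66 bases around it is shown for each, both from the minus strand, because these 2 genes are set side by side in the results. In Irs1 (chr1:82291519-82291584) the E-box began 115 bases before the start, and in Irs2 (chr8:11008938-11009003) 44 bases before it. The E-box is in capitals. A match of letters describes the sequence and was not tested as a binding site.
Irs1: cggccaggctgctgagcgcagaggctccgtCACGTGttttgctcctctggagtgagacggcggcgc
Irs2: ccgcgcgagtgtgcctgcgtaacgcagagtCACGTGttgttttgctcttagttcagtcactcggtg

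Across the 8 comparisons drawn from a single limma model (5 pairs of groups, the genotype effect over both diets, the diet effect over both genotypes, and their interaction), none of the 10 genes passed an adjusted p of 0.05 over all clusters. Of the 80 combinations of gene and comparison, 9 had an unadjusted p under 0.05, against 5.37% of all combinations on the array. The 9 lay in Igf1, Adipor2 and Irs1, and each of them set AppNL-F/NL-F mice against wild-type mice. For genotype, limma's unadjusted p was under 0.05 for Igf1 and Adipor2 with a higher mean in AppNL-F/NL-F mice, against 2.92% of clusters, and for Irs1 with a lower one, against 3.55%. For diet the count was 0 of 10 in limma, against 4.97% of clusters, and for the interaction 0 of 10, again against 4.97%. In the pairs of groups, Igf1 alone passed between App RD and WT RD mice (higher, 3.06% of clusters), Igf1 and Adipor2 passed between App HFD and WT HFD mice (higher, 2.43%), and between App HFD and WT RD mice Igf1 and Adipor2 were higher (2.53%) and Irs1 lower (2.66%). None of the 10 passed by diet within wild-type mice (5.22% of clusters) or within AppNL-F/NL-F mice (4.62%). Over the 4 groups, the F test had an unadjusted p under 0.05 for Igf1 (0.00280) and Adipor2 (0.0486), against 5.69% of clusters. By diet, no gene had all 6 HFD mice above (0.169% of clusters) or below (0.106%) all 6 RD mice. The whole array gave 1 call in these 8 comparisons, Cst7 by genotype (0.00242% of clusters).

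**Figure D1:**
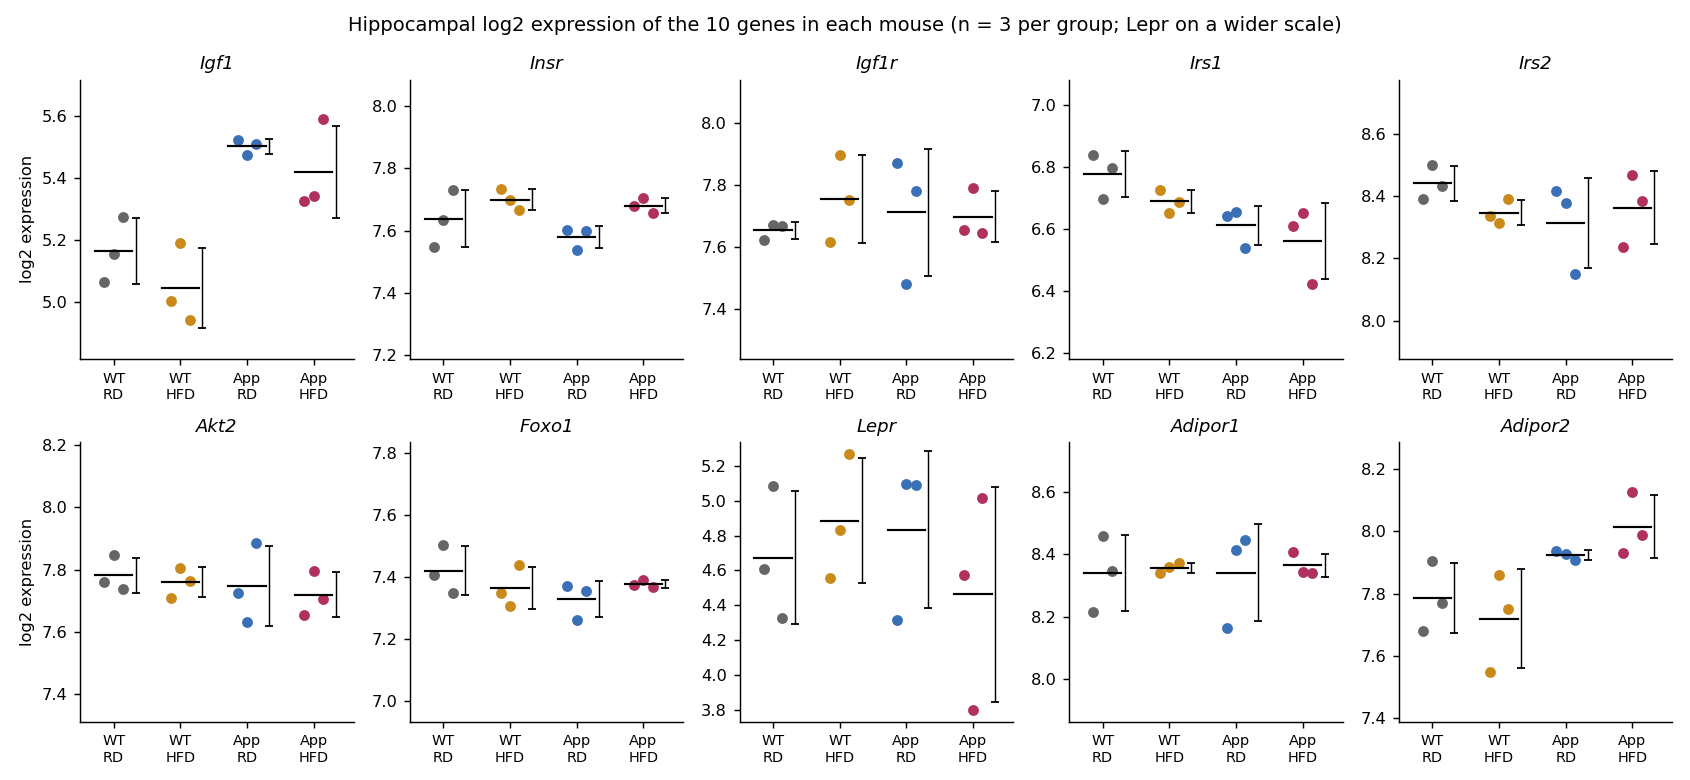
Log2 expression of the 10 genes (vertical axis, each gene on its own scale of equal height except Lepr) in the 12 mice by group. Points are mice, horizontal bars the means and vertical bars 1 SD (n = 3). All 6 AppNL-F/NL-F mice lay above all 6 wild-type mice for Igf1 and Adipor2, and the Lepr points spread widest.

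Igf1, the growth factor that activates IGF1R and that neurons and microglia make in the brain, had log2 values of 5.06, 5.16 and 5.28 in WT RD mice and of 5.003, 5.19 and 4.94 in WT HFD mice. In App RD mice they were 5.52, 5.47 and 5.51, and in App HFD mice 5.33, 5.34 and 5.59. The genotypes did not overlap: the lowest AppNL-F/NL-F mouse, at 5.33, stood above the highest wild-type mouse, at 5.28. All 6 mice of one genotype lay above all 6 of the other in 0.244% of clusters. Igf1 averaged 0.36 higher in AppNL-F/NL-F mice on the log2 scale (standard error 0.07, 1.28-fold with a 95% interval of 1.15 to 1.43), at an unadjusted p of 0.000434 and an adjusted p of 0.381 from limma. The exact permutation test within diets gave p = 0.005 (two-sided), the smallest value its 400 assignments allow, which 1.06% of clusters also reached. By diet the difference was -0.10 (standard error 0.07, limma's unadjusted p = 0.179), and the interaction was 0.04 (standard error 0.14). The genotype difference was 0.34 (standard error 0.10) on the RD and 0.37 (standard error 0.10) on the HFD. The mean of Igf1 over the arrays, 5.28, lies below an intensity of 100, so its signal is dim. In bulk tissue a change in the number of cells that make a transcript and a change in transcript per cell cannot be told apart.

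Most microglia markers also had a higher mean in AppNL-F/NL-F mice. Of 11 measured genes of plaque-associated microglia, 10 had a genotype difference above 0, 7 of them higher at an unadjusted p under 0.05 in limma, as 2.92% of all clusters were, and Cst7 passed at an adjusted p of 0.00608 (difference 1.17, standard error 0.09). The mean of the list ran from 5.94 to 5.97 in WT RD mice, from 5.98 to 6.05 in WT HFD mice, from 6.17 to 6.35 in App RD mice and from 6.20 to 6.47 in App HFD mice. Trem2, a lipid-sensing receptor of microglia, differed by 0.40 (standard error 0.08), and Clec7a, a pattern receptor of the same cells, by 0.74 (standard error 0.12). Of 9 measured general microglia markers 8 were above 0, and 4 were higher at that threshold. Of 8 astrocyte markers 7 were above 0 and 2 were higher at it, Gfap among them with a difference of 0.28 (standard error 0.06). Of the other cell types, 7 of 7 measured oligodendrocyte, 9 of 10 meningeal fibroblast, 8 of 11 endothelial, 7 of 9 mural cell and 6 of 8 neuron markers were above 0. So were 4 of 8 interneuron, 5 of 10 hippocampal neuron, 4 of 8 measured neighbouring region and 0 of 11 measured choroid plexus markers (median -0.36). Of all these, 1 oligodendrocyte marker was higher and 2 hippocampal neuron markers were lower at that threshold, where 3.55% of all clusters were lower. Like Igf1, the plaque-associated list did not overlap between genotypes. The part of these lists in the Igf1 difference was not tested.

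**Figure D2:**
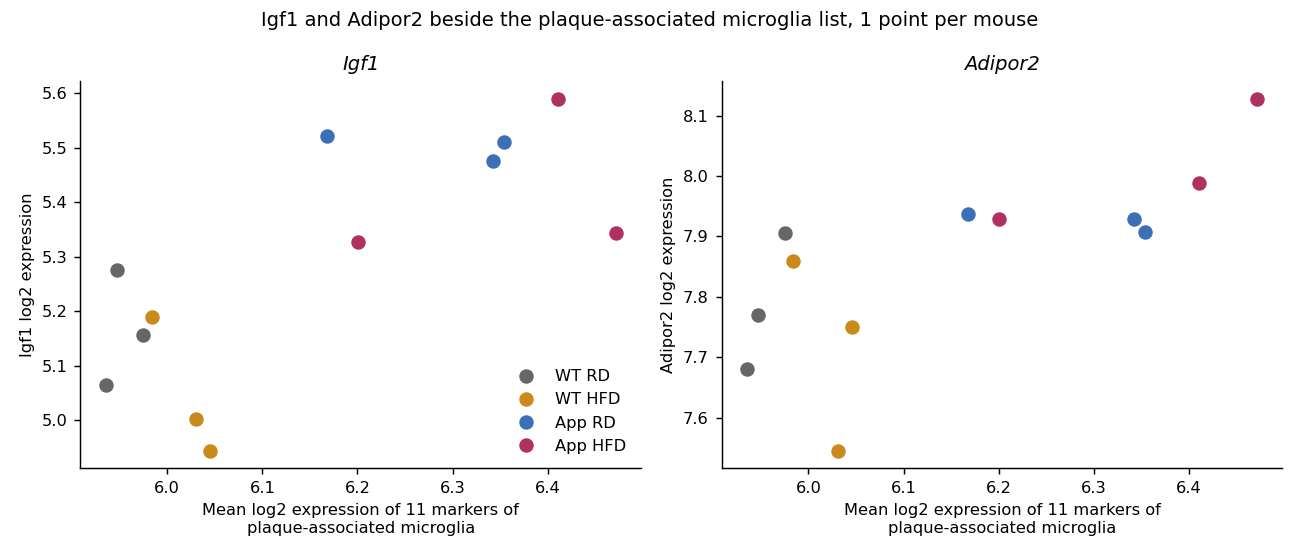
Log2 expression of Igf1 (left) and Adipor2 (right) on the vertical axis against the mean log2 expression of 11 markers of plaque-associated microglia on the horizontal axis, 1 point per mouse, coloured by group. The wild-type mice lie at list means of 5.94 to 6.05 and the AppNL-F/NL-F mice at 6.17 to 6.47, with no overlap on either axis.

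Insr, the insulin receptor, had log2 values of 7.55, 7.63 and 7.73 in WT RD mice, 7.73, 7.70 and 7.67 in WT HFD mice, 7.60, 7.54 and 7.60 in App RD mice and 7.68, 7.71 and 7.66 in App HFD mice. All 3 App HFD mice were above all 3 App RD mice, as in 4.98% of clusters, and the wild-type groups overlapped. The diet difference was 0.08 (standard error 0.05, 95% interval -0.03 to 0.19), with an unadjusted p of 0.130 and an adjusted p of 0.9996 from limma. The exact permutation test within genotypes gave p = 0.03, a value below 0.05 that 4.86% of clusters also had. No difference between genotypes in the diet effect was detected (interaction 0.04, standard error 0.10, 95% interval -0.18 to 0.26). By genotype Insr differed by -0.04 (standard error 0.05). No vessel marker passed an adjusted p of 0.05 by diet. Of 11 endothelial genes 10 had a diet difference above 0 and 2 were higher at an unadjusted p under 0.05 in limma, and of 9 mural cell genes 8 were above 0 and 4 were higher at that threshold, where 2.66% of all clusters were. Within wild-type mice 11 of the 11 endothelial (median 0.20) and 9 of the 9 mural genes (median 0.31) were above 0. There 2 and 4 were higher at that threshold, against 2.95% of clusters. Within AppNL-F/NL-F mice 5 of the 11 (median -0.0076) and 8 of the 9 (median 0.07) were above 0, none past it. Of the other cell types, 10 of 10 meningeal fibroblast markers (median 0.18) and 7 of 7 measured oligodendrocyte markers (median 0.14) were above 0 by diet over both genotypes. So were 0 of 8 interneuron markers (median -0.08) and 0 of 11 measured choroid plexus markers (median -0.17), and none of these markers passed an unadjusted p of 0.05. Of 9 measured general microglia markers 8 were above 0 and 2 were higher at that threshold, and of 11 plaque-associated ones 10 and 2. Of 8 measured markers of neighbouring regions 5 were above 0 and 1 was higher at it. Of 8 astrocyte and of 8 neuron markers 2 each were above 0, none past it. The means of the endothelial list ran from 6.11 to 6.54 on the RD and from 6.33 to 6.71 on the HFD, and the part of these cell types in the Insr values was not tested.

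Igf1r, the receptor of IGF1, had values of 7.62, 7.67 and 7.67 in WT RD mice, 7.62, 7.90 and 7.75 in WT HFD mice, 7.87, 7.48 and 7.78 in App RD mice and 7.66, 7.79 and 7.65 in App HFD mice. The App RD mice held both the lowest value of all, 7.48, and nearly the highest, and every pair of groups overlapped. By genotype Igf1r differed by 0.00 (standard error 0.08, 95% interval -0.17 to 0.17) and by diet by 0.04 (standard error 0.08, 95% interval -0.13 to 0.22). With this spread, genotype differences from 0.89-fold to 1.13-fold lie inside the interval, so these arrays do not exclude them.

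Irs1, the first of the docking proteins, had log2 values of 6.84, 6.69 and 6.80 in WT RD mice and 6.73, 6.65 and 6.69 in WT HFD mice. It had 6.64, 6.65 and 6.54 in App RD mice and 6.61, 6.65 and 6.42 in App HFD mice. All 6 AppNL-F/NL-F mice were below the wild-type median of 6.71, and 4 of the 6 were below every wild-type mouse, the lowest of which was at 6.651, so the genotypes overlapped slightly. The genotype difference was -0.15 (standard error 0.06, unadjusted p = 0.0293, adjusted p = 0.752 from limma), and the exact permutation test gave p = 0.01. Limma's unadjusted p rose to as much as 0.0729 when WT RD mouse 1 or 3, WT HFD mouse 1, App RD mouse 3 or App HFD mouse 3 was left out. An exact p under 0.05 by genotype was found for 6.46% of clusters. The group means stepped down from 6.78 in WT RD to 6.56 in App HFD mice, a difference of -0.22 (standard error 0.08) that WT HFD and App RD mice, at 6.69 and 6.61, lay between, and each neighbouring pair in this order overlapped. By diet the difference was -0.07 (standard error 0.06).

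The values of Irs1 depend on which of its probe clusters is read. A dimmer cluster of the same symbol (mean 4.34) had a genotype difference of 0.06 (standard error 0.12) and a diet difference of -0.34 (standard error 0.12, unadjusted p = 0.0149, adjusted p = 0.979 from limma). There the WT HFD mice were at 4.04, 4.39 and 3.92 and the App HFD mice at 3.98, 4.17 and 4.54, against 4.35 to 4.70 over the 6 RD mice. The brighter cluster thus had an unadjusted p under 0.05 for genotype and the dimmer one for diet, and neither passed an adjusted p of 0.05.

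Irs2, the second docking protein, had values of 8.39, 8.50 and 8.43 in WT RD mice, 8.34, 8.31 and 8.39 in WT HFD mice, 8.42, 8.38 and 8.15 in App RD mice and 8.24, 8.47 and 8.38 in App HFD mice. All groups overlapped, although WT HFD mice, with a highest value of 8.3925, only just reached into the range of WT RD mice, whose lowest was 8.3918. By genotype Irs2 differed by -0.06 (standard error 0.07, 95% interval -0.20 to 0.09) and by diet by -0.02 (standard error 0.07). Averaged over the diets, Irs2 and the brighter Irs1 cluster had a lower mean in AppNL-F/NL-F mice, and for Irs2 the difference was smaller than the spread between mice. The genotype difference of Irs2 was -0.13 (standard error 0.09) on the RD and 0.02 (standard error 0.09) on the HFD, so it was not lower on the HFD. A dimmer cluster shared by Irs2 and the transcript 9530052E02Rik (mean 4.77) differed by -0.23 (standard error 0.10, unadjusted p = 0.0486, adjusted p = 0.772 from limma) and cannot be assigned to either.

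**Figure D3:**
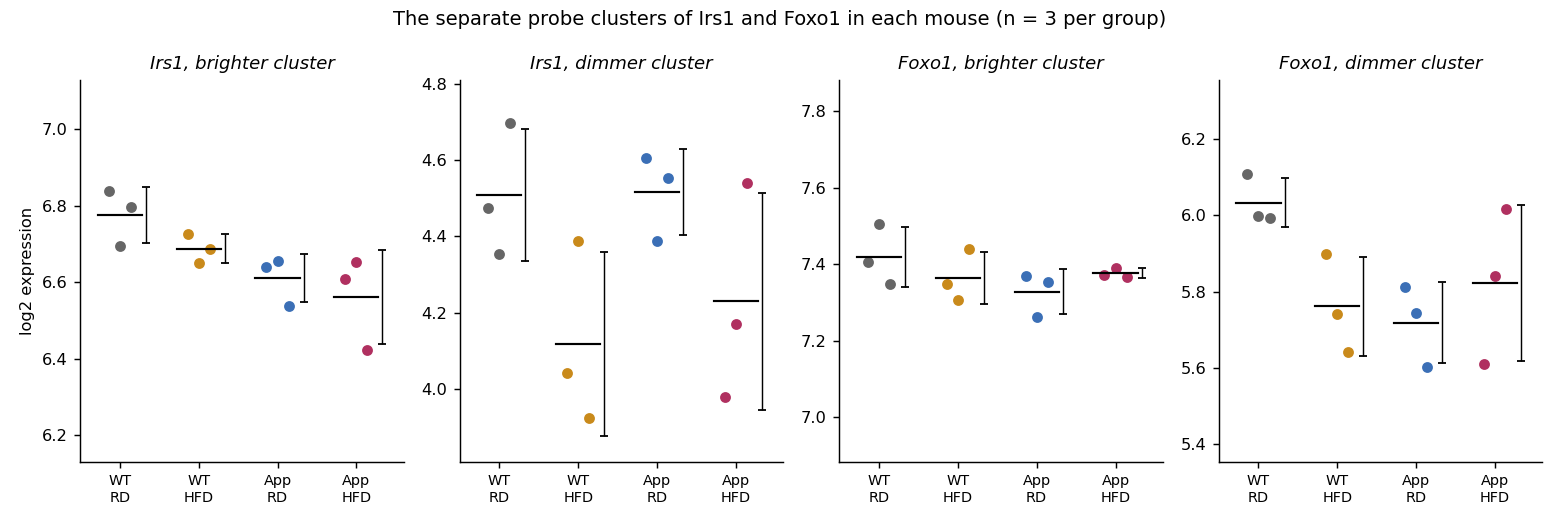
Log2 expression (vertical axes of equal height) of the brighter and the dimmer probe cluster of Irs1 and of Foxo1 in each mouse by group, with means and 1 SD (n = 3). The dimmer Irs1 cluster is lower in most HFD mice, and the dimmer Foxo1 cluster is highest in the 3 WT RD mice apart from 1 App HFD mouse at 6.02.

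Akt2, the AKT kinase best known for insulin-driven glucose uptake, had values of 7.76, 7.85 and 7.74 in WT RD mice, 7.71, 7.81 and 7.76 in WT HFD mice, 7.72, 7.63 and 7.89 in App RD mice and 7.65, 7.80 and 7.71 in App HFD mice. No pair of groups separated. Its genotype difference was -0.04 (standard error 0.06, 95% interval -0.17 to 0.09), the diet difference -0.03 (standard error 0.06, 95% interval -0.16 to 0.11) and the interaction -0.01 (standard error 0.12).

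Foxo1, the FOXO factor that AKT restrains, had values of 7.41, 7.50 and 7.35 in WT RD mice, 7.35, 7.31 and 7.44 in WT HFD mice, 7.37, 7.26 and 7.35 in App RD mice and 7.37, 7.39 and 7.37 in App HFD mice. The App HFD mice lay within a narrow band inside the range of the WT RD mice. The genotype difference was -0.04 (standard error 0.05) and the diet difference -0.0036 (standard error 0.05, 95% interval -0.12 to 0.11). A dimmer cluster of Foxo1 (mean 5.83) read 6.11, 5.998 and 5.99 in WT RD mice, 5.90, 5.74 and 5.64 in WT HFD mice, 5.81, 5.74 and 5.60 in App RD mice and 5.61, 5.84 and 6.02 in App HFD mice. All 3 WT RD mice stood above all WT HFD and App RD mice in that cluster, as in 1.15% of clusters on the array. It differed by -0.31 (standard error 0.11, unadjusted p = 0.0194) between App RD and WT RD mice and by -0.27 (standard error 0.11, unadjusted p = 0.0370) between WT HFD and WT RD mice in limma. The interaction was 0.37 (standard error 0.16, unadjusted p = 0.0411, adjusted p = 0.983). For the brighter cluster it was 0.10 (standard error 0.10, unadjusted p = 0.339).

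Lepr, the leptin receptor, was the most variable of the 10. It read 4.61, 5.08 and 4.33 in WT RD mice, 4.56, 4.83 and 5.27 in WT HFD mice, 4.32, 5.10 and 5.09 in App RD mice and 4.58, 3.80 and 5.01 in App HFD mice. The residual SD was 0.41, against 0.09 to 0.14 for the other 9 genes, and every pair of groups overlapped. Lepr differed by -0.13 by genotype (standard error 0.24, 95% interval -0.66 to 0.40) and by -0.08 by diet (standard error 0.24, 95% interval -0.61 to 0.45), with an interaction of -0.58 (standard error 0.48, 95% interval -1.64 to 0.48). These intervals allow changes in either direction and leave the effect of the diet on Lepr undetermined. Lepr lies below an intensity of 100 (mean 4.71). Choroid plexus, a tissue at the edge of the hippocampus known to carry Lepr, had marker levels that varied between mice. Of its 11 measured markers 2 had a mean above an intensity of 100. The mean of the 11 was 6.66, 6.91 and 5.94 in WT RD mice, beside Lepr values of 4.61, 5.08 and 4.33 in the same order. For WT HFD mice it was 5.27, 7.11 and 7.23, beside 4.56, 4.83 and 5.27. For App RD mice it was 5.07, 6.82 and 7.39, beside 4.32, 5.10 and 5.09. Within each of these groups Lepr was lowest in the mouse with the lowest marker mean. App HFD mice differed, with marker means of 6.94, 5.51 and 5.15 beside Lepr values of 4.58, 3.80 and 5.01. There the highest Lepr value stood with the lowest marker mean. The part of choroid plexus in the Lepr values was not tested.

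The adiponectin receptors Adipor1 and Adipor2 are given in turn, with no test of one against the other. Adipor1, the receptor tied to AMP-activated kinase, read 8.21, 8.46 and 8.35 in WT RD mice, 8.34, 8.36 and 8.37 in WT HFD mice, 8.16, 8.41 and 8.45 in App RD mice and 8.41, 8.35 and 8.34 in App HFD mice. Its genotype difference was 0.00 (standard error 0.07, 95% interval -0.14 to 0.15) and its diet difference 0.02 (standard error 0.07, 95% interval -0.13 to 0.17). The HFD mice of both genotypes lay inside the ranges of the RD mice.

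Adipor2, the receptor tied to PPARα, read 7.68, 7.905 and 7.77 in WT RD mice and 7.55, 7.86 and 7.75 in WT HFD mice. It read 7.94, 7.93 and 7.91 in App RD mice and 7.93, 8.13 and 7.99 in App HFD mice. All 6 AppNL-F/NL-F mice were above all 6 wild-type mice, but only just, since the lowest of them stood at 7.907 and the highest wild-type mouse at 7.905. The genotype difference was 0.22 (standard error 0.07, 1.16-fold with a 95% interval of 1.05 to 1.29), at an unadjusted p of 0.0103 and an adjusted p of 0.654 from limma, and the exact permutation test gave p = 0.005. It was 0.30 (standard error 0.10) on the HFD and 0.14 (standard error 0.10) on the RD, and the difference between these, the interaction, was 0.16 (standard error 0.14, unadjusted p = 0.282 from limma). By diet the difference was 0.01 (standard error 0.07). The plaque-associated microglia list and the astrocyte list also separated the genotypes, while the general microglia list overlapped (up to 7.08 in WT HFD mice, from 7.06 in App RD mice). The part of these lists in the Adipor2 difference, or in that of Irs1, whose genotypes overlapped, was not tested either.

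**Figure D4:**
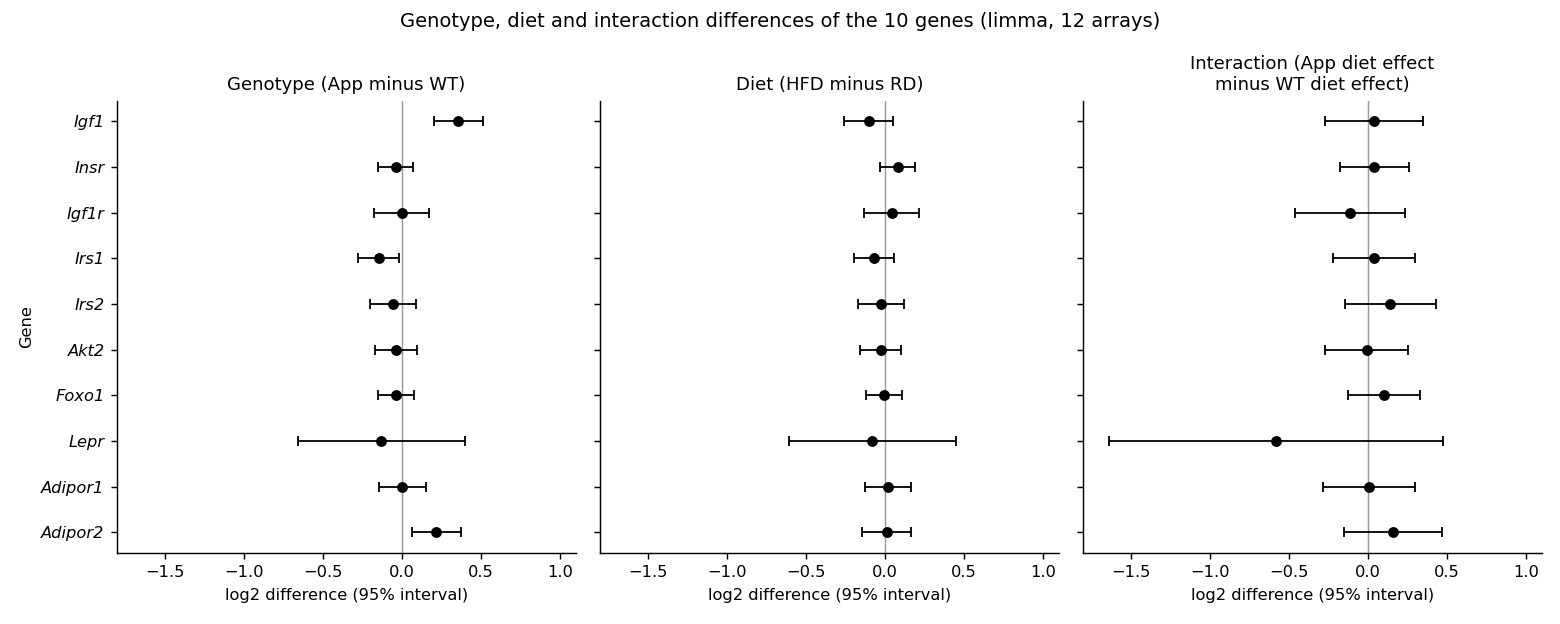
Log2 differences (points, horizontal axis) with 95% intervals for the 10 genes in the genotype, diet and interaction comparisons of the limma model (12 arrays, 3 mice per group). The genotype intervals of Igf1, Adipor2 and Irs1 lie off 0, every diet and interaction interval crosses 0, and those of Lepr are the widest.

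Of the single-symbol clusters above an intensity of 100, those whose values over the 12 arrays were most like Igf1 were Tmem185a (Pearson r = 0.878), Tra2a (r = 0.878) and Lbh (r = 0.876), out of 7069 searched. After the group means were taken out, r was 0.706, 0.593 and 0.762. For Adipor2 they were Cdkn1a, which encodes the cell cycle inhibitor p21 (r = 0.898), Net1 (r = 0.885) and Faf1 (r = 0.863), with 0.881, 0.904 and 0.919 within groups. Cdkn1a differed by genotype by 0.67 (standard error 0.21, adjusted p = 0.654 from limma). These correlations describe arrays that share groups and were picked as the highest of many.

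The other genes of the pathway came from 8 lists with 90 genes, of which 82 had a cluster. None of the 82 passed an adjusted p of 0.05 in limma in any of the 8 comparisons, and by genotype 3 were higher and 4 lower at an unadjusted p under 0.05, or 8.54% against 6.47% of all clusters. By diet 2 were higher and 2 lower, or 4.88% against 4.97%, and for the interaction 1 was higher at that threshold, or 1.22% against 4.97%. The median difference of the 82 genes was 0.01 by genotype and -0.0031 by diet, beside -0.0043 and -0.00094 over all clusters.

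Among ligands 8 of 10 genes were measured. C1qtnf4, a brain-enriched relative of adiponectin, differed by -0.20 by genotype (standard error 0.08, unadjusted p = 0.0249 in limma), with 6.90, 7.15 and 7.17 in App RD mice and 7.04, 7.19 and 7.23 in App HFD mice. Wild-type mice ran from 7.17 to 7.50, so the genotypes overlapped. Igf2, the fetal growth factor that meninges and choroid plexus keep making in the adult brain, differed by 0.13 (standard error 0.24). Of the 9 IGF binding proteins and partners 1 passed an unadjusted p of 0.05 by genotype and none by diet. It was Igfals, which extends the life of IGFs in blood, with a difference of -0.17 (standard error 0.07). Igfbp5, which holds IGF1 in the tissue, differed by 0.14 (standard error 0.08) by genotype. Igfbp3, the main carrier of IGFs in blood, had the smallest interaction p of the 82 genes, with a diet difference of -0.19 (standard error 0.10) in wild-type and of 0.25 (standard error 0.10) in AppNL-F/NL-F mice and an interaction of 0.44 (standard error 0.14, unadjusted p = 0.0123, adjusted p = 0.979 from limma).

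None of the 6 measured adaptors passed an unadjusted p of 0.05, and Appl1, which links the adiponectin receptors to AKT, differed by 0.04 (standard error 0.05) by genotype. Of the 13 PI3K and AKT kinases and partners none passed by genotype and 1 by diet. That gene, Pik3r3, a regulatory subunit of PI3-kinase, differed by -0.19 by diet (standard error 0.08, unadjusted p = 0.0336 in limma). It read 7.63, 7.75 and 7.92 in WT RD mice and 7.55, 7.49 and 7.67 in WT HFD mice, then 7.78, 7.61 and 7.98 in App RD mice and 7.66, 7.48 and 7.65 in App HFD mice, so that the diets overlapped in both genotypes. Pik3r1, the main regulatory subunit, differed by -0.11 by diet (standard error 0.05, unadjusted p = 0.0521 in limma). By diet 2 of the 13 genes had a difference above 0, with a list median of -0.05 beside -0.00094 over all clusters.

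Among the 15 measured inhibitors 1 was higher and 1 lower by genotype at an unadjusted p under 0.05 in limma. Ptpn1, the phosphatase PTP1B that turns off the insulin and leptin receptors, differed by 0.20 (standard error 0.07, unadjusted p = 0.0147, adjusted p = 0.684 in limma). Tsc1, which restrains mTOR, differed by -0.13 (standard error 0.05, unadjusted p = 0.0390 in limma), with overlapping ranges of 7.01 to 7.24 in AppNL-F/NL-F mice and 7.22 to 7.33 in wild-type mice. Of the 14 FOXO factors and targets 1 passed by genotype, Foxo6, lower by a difference of -0.16 (standard error 0.06), and Cdkn1b, a FOXO target that halts the cell cycle, differed by 0.11 (standard error 0.06). Of the 12 leptin and AMPK genes 2 were higher by genotype at that threshold. They were Prkag1, a regulatory subunit of AMP-activated kinase, at 0.12 (standard error 0.05, unadjusted p = 0.0356), and Stk11, the kinase LKB1 that activates it, at 0.16 (standard error 0.06, unadjusted p = 0.0360 in limma). Stk11 read 6.82 to 6.99 in AppNL-F/NL-F mice and 6.57 to 6.86 in wild-type mice, and both genes overlapped between genotypes. None of the 5 glucose transporters passed by genotype, and Slc2a1, the transporter of the blood-brain barrier, differed by 0.17 (standard error 0.10). By diet 1 transporter passed, Slc2a4, lower by -0.18 (standard error 0.11) in wild-type and by -0.18 (standard error 0.11) in AppNL-F/NL-F mice. Of the inhibitors 1 was higher by diet at that threshold, Eif4ebp1 (0.20 in wild-type and 0.13 in AppNL-F/NL-F mice, standard error 0.09 each). Of the FOXO list 1 was, Klf15 (0.07 and 0.27, standard error 0.11 each). Igfals, Igfbp3, Ptpn1 and Foxo6 fall outside the rule for naming genes and were singled out after their values were seen.

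**Figure D5:**
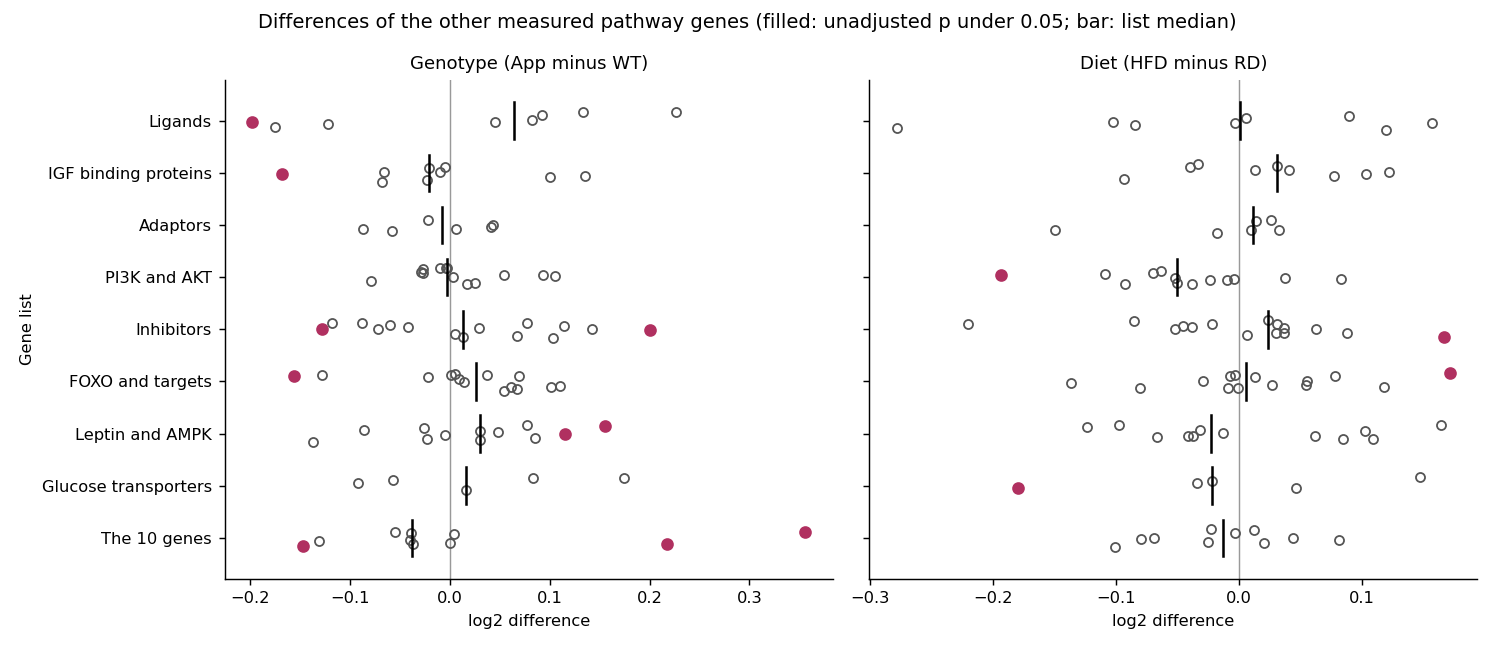
Log2 differences by genotype (left) and by diet (right) on the horizontal axis for the 82 measured genes of the 8 other pathway lists and, in the lowest row, for the 10 genes. Filled points have an unadjusted p under 0.05 in limma, open points do not, and bars are list medians. Igf1, at 0.36, lies farthest from 0 of all points by genotype.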

How the data were processed

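For hippocampal RNA of 12 mice, the deposited values are gene-level log2 expression per transcript cluster, which the authors made from the array scans in Transcriptome Analysis Console. Summarisation and normalization methods: not given in the sources used here. No further normalization step was added. Groups and replicate numbers came from the sample labels. Clusters were named through the platform annotation (23521 with 1 symbol, 1820 with several, 16004 with none).

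With R 4.3.3 and limma 3.58.1, a model of the 4 groups with no block (lmFit, eBayes) was fitted to the 41345 clusters after a test on simulated data. The Benjamini-Hochberg adjustment was made across all of them. Unless called exact, p-values are limma's. Exact permutation tests used the mice within strata (400 assignments). Between 3 and 3 mice they allow no p under 0.1, so none is given for pairs of groups. The labels number the mice as biological replicates, and p-values measure the spread between these 12 mice.

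The 10 genes and the lists were chosen with earlier results of these data known. All 10 are named. From each other list up to 4 genes above an intensity of 100 with the smallest p by genotype, diet or interaction could be named, and 3 genes most like Igf1 and Adipor2, the members with an F test p under 0.05. Alternatives were another variance prior, a filter on dim clusters, quantile normalization, median centring, fits of 2 groups alone, a replicate block, a choroid plexus covariate, array weights, other clusters and leaving out each mouse. Promoter sequences are RefSeq's (GRCm38.p6).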

Additional observations from a re-analysis of the deposited data

How the results depend on the processing

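None of the 10 genes and none of the 82 other pathway genes was called under any alternative. The 9 combinations of gene and comparison with an unadjusted p under 0.05 from limma ranged from 6 to 12 over the other settings, with 12 on the dimmer Foxo1 cluster, and from 5 to 9 when each mouse was left out, with 5 without WT RD mouse 1 and 5 without App HFD mouse 3. For the 82 pathway genes, the 24 combinations ranged from 17 to 29, and from 15 to 30 when each mouse was left out, with 15 without WT HFD mouse 1, WT HFD mouse 2 or App RD mouse 1. The 4 of 20 exact permutation tests with p under 0.05 (Igf1, Adipor2 and Irs1 by genotype, Insr by diet) ranged from 3 to 5 without each mouse. The genotype difference of Igf1 ran from 0.31 to 0.39 over 19 settings, with adjusted p from 0.296 to 0.663 in limma, and that of Adipor2 from 0.17 to 0.25 over 20, with 0.248 to 0.811. That of Irs1 ran from -0.17 to -0.11 without a mouse, passed an unadjusted p of 0.05 in 15 of 20 settings, and was lost without WT RD mouse 1 or 3, WT HFD mouse 1, App RD mouse 3 or App HFD mouse 3. On its dimmer cluster it was 0.06. The fits of 2 groups alone kept the main model's values for genotype, diet and interaction, so for these that setting could not differ. Igf1 and Lepr have no value once dim clusters are removed. Deviations of same-numbered mice correlated weakly (r between -0.0022 and 0.105), with no r of differently numbered mice set beside them. Of the 12 arrays, 6 were closest, among the other groups, to one of their own number. Whether the numbers mark a batch was not tested, and they were not taken to pair the mice. The replicate block also gave 9 combinations and 24 for the pathway genes. Dim signals and 3 mice per group limit what could be detected.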
